A study of Mus musculus with 3 samples.

Results

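Oxidative phosphorylation subunits are the nuclear-encoded building blocks of the 4 respiratory complexes and of ATP synthase in the mitochondrial inner membrane. They were taken from the array by gene symbol alone, as the Nduf, Sdh, Uqcr, Cyc1, Cox and Atp5 subunit families, with the Cox families 4 to 8 and without Atp5s. The rule gave 84 genes, measured by 104 probes, out of 22911 genes and 32994 probes that a RefSeq accession named. A further 7 symbols fit the rule and had no named probe, namely Cox5b, Ndufb1, Ndufb4b, Ndufb4c, Cox6c2, Ndufs6b and Ndufa11b. Subunits encoded in mitochondrial DNA had no named probe either and are not analysed here.

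The study compared 3 BALB/c mouse tumour cell lines, each on 1 single-colour Agilent array. Colon26 is a colon adenocarcinoma line and the parent of both others. LuM1 is its subline with high metastatic capacity, and NM11 is a subline with low metastatic capacity. All cells were labelled female, had no treatment in their labels, grew for 3 days in RPMI1640 with serum, and gave 0.1 µg of total RNA for Cy3 labelling. Each line is represented by 1 culture, so no difference below has a replicate check and none carries a p-value. The scanner's own error for a spot was close to 10.0% of its signal, which gives a typical error of 0.20 for a log2 ratio of 2 arrays and covers the spot only. In a bulk RNA sample, fewer cells with a transcript and less transcript per cell cannot be told apart.

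Signals are background-subtracted fluorescence, scaled so that the 75th percentile of every array was 585.1, and have no unit. They can be compared between lines for 1 probe, and not between genes. Where several probes named 1 gene, the brightest stood for it. In all 3 lines 81 of the 84 subunit genes were detected well above background, Cox8b was so in Colon26 alone, and Cox7b2 and Cox8c were so on no array. Among all named genes 56.9% to 59.9% were well above background per array, against 96.4% to 97.6% of the subunit genes. None of the 104 probes was saturated. Of the epithelial markers Epcam, Krt8, Krt18, Krt19, Krt20 and Cdh1, only 2 were well above background in Colon26, 3 in LuM1 and 2 in NM11, with Cdh1, Krt18 and Krt19 on none. Krt20 stood at 651 in Colon26, 54.5 in LuM1 and 157 in NM11, and Krt8 at 28.9, 107.6 and 37.1. Epcam was well above background in LuM1 alone, at 28.0, near that array's lowest detected signal of 20.1. Of 5 colon epithelial markers, Cdx2 alone was detected. All 5 mesenchymal markers were detected on every array, but LuM1 stood apart in Col1a2 and Col1a1. Col1a2 was at 59896 in Colon26, 49.6 in LuM1 and 85275 in NM11. Col1a1 was 2.19-fold lower in LuM1 than in Colon26 and 2.69-fold lower than in NM11. Vim, Pdgfrb and Acta2 had log2 ratios of -0.35, -0.04 and -0.08 for LuM1 over Colon26. Of 5 leukocyte markers, Ptprc and Adgre1 were well above background on no array. Cd68 stood at 172 in Colon26, 5251 in LuM1 and 299 in NM11, while Cd3e and Itgam had log2 ratios of -0.30 and 0.44 for LuM1 over Colon26. The part of these markers' cell types in the results below was not tested.

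As background, complex I oxidises NADH and complex II oxidises succinate, and both pass electrons to ubiquinone. Complex III hands them on to cytochrome c, and complex IV, cytochrome c oxidase, reduces oxygen. Complexes I, III and IV pump protons, and ATP synthase uses the returning protons to make ATP. Several complex IV subunits exist as a widely expressed form and as a second form restricted to muscle, testis, lung or low oxygen.

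The transcription factor NRF1 is a known regulator of respiratory chain genes, so the RefSeq promoter windows of the members were read for its motif. Each window covers 250 bases before to 50 bases after a transcript start in GRCm38.p6. In all, 67 of the 84 genes had at least 1 window, giving 72 windows. The palindromic NRF1 motif, with every motif sought on both strands, was in 6.94% of these 72 windows and in 0.971% of all 32851 windows, and the 5 genes holding it were Atp5g2, Atp5k, Cox6a1, Ndufa11 and Uqcrc1. Its shorter core GCATGCG, which lies within the palindrome, was in 15.3% of member windows and in 3.58% of all. The YY1 motif AAGATGGCG was in 9.72% against 1.4%, and the ETS motif CCGGAAGT in 6.94% against 3.89%. TACGTG, sought as 1 form of the HIF motif, was in 1.39%, which is Uqcr11 alone, against 3.23%. Only these exact letters were sought, so other forms of a motif were not counted. A match is a description of letters and not a binding site.

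For LuM1 over Colon26 the median log2 ratio of the signals was -0.37 in the 11 measured genes with the NRF1 core and -0.41 in the 54 without it. With the full NRF1 motif it was -0.20 in 5 genes against -0.41 in 60, and with the YY1 motif -0.22 in 7 against -0.44 in 58. With the ETS motif it was -0.47 in 5 against -0.36 in 60, and Uqcr11, alone with TACGTG, had -0.46 against -0.38 in 64. These are descriptions with no test. In all, 5 windows are printed below because the results turn on these genes. Atp5g1, Atp5g2 and Atp5g3 encode the same mature subunit and differed in LuM1, Uqcrc1 had the lowest LuM1 over Colon26 ratio outside the restricted isoforms, and Cox7a1 had the highest ratio of all members in the same comparison. Sequences run 5′ to 3′ on the gene's strand, and capitals mark matches to the motifs named above.
Atp5g1 (GRCm38.p6 chr11:96075582-96075881, minus strand): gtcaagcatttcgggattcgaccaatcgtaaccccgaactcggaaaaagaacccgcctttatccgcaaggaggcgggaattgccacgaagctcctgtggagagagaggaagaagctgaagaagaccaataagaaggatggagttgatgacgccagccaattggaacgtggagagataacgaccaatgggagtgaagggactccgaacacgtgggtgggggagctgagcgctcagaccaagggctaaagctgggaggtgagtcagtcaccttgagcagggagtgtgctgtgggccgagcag
Atp5g2 (GRCm38.p6 chr15:102670998-102671297, minus strand): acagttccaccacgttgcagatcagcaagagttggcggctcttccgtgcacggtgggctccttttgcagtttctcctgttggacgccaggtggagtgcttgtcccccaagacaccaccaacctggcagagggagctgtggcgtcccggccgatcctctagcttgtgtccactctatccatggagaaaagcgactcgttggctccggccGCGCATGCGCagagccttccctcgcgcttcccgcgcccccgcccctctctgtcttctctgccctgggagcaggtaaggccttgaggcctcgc
Atp5g3 (GRCm38.p6 chr2:73911277-73911576, minus strand): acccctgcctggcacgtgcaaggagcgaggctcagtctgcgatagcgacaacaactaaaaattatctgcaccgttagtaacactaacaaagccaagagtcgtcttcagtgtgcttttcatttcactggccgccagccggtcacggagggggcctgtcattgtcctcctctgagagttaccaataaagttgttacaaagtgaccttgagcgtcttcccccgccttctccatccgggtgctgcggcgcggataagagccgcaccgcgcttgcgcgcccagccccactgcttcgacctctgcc
Uqcrc1 (GRCm38.p6 chr9:108936398-108936697, plus strand): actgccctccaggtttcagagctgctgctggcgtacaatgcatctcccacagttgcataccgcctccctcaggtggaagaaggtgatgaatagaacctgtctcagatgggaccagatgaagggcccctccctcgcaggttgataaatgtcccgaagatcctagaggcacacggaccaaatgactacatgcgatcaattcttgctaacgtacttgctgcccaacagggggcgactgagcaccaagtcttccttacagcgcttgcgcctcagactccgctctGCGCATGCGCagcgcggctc
Cox7a1 (GRCm38.p6 chr7:30183921-30184220, plus strand): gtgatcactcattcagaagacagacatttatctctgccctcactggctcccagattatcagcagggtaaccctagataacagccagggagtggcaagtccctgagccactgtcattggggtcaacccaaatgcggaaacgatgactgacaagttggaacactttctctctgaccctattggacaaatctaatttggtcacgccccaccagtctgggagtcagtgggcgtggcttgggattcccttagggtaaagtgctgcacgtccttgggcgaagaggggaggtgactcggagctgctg
Of these 5 windows, those of Atp5g2 and Uqcrc1 hold the full NRF1 motif and the other 3 hold no exact match to the letters searched.

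Across the 3 lines most subunit genes differed little, while 3 restricted complex IV isoforms differed by a wide margin. In LuM1, Cox7a1 and Ndufa4l2 were far higher and Cox6a2 was far lower than in Colon26 and in NM11. Among the widely expressed subunits, several were about 2-fold lower in LuM1 than in Colon26 on the 75th-percentile scale and by the brightest probe. These were Atp5a1, Atp5b and Atp5d of ATP synthase, Uqcrc1 of complex III, Cox5a of complex IV and Ndufs8 of complex I. Under the 8 other scalings and background corrections tried, their log2 ratios nearest to 0 were -0.56, -0.48, -0.57, -0.78, -0.57 and -0.52, in that order. On the 75th-percentile scale NM11 and Colon26 differed by less than 1.5-fold for all but 9 of 82 members. Of all genes 15.5% were at least 1.5-fold higher and 16.7% lower in NM11. With Hprt as reference 33 members were at least 1.5-fold lower in NM11 and with the E1A spike-in controls 21 were. These references also shifted the median of all genes, by -0.49 and -0.33.

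The comparison of LuM1 with Colon26 sets the subline of high metastatic capacity against its parent. Of the 82 members that could be compared, 3 were at least 1.5-fold higher in LuM1, where 20.4% of all genes were, and 26 were at least 1.5-fold lower, where 24.6% of all genes were. The median log2 ratio of the 81 members measured on both arrays was -0.35, against -0.13 for all genes, and 65 of 81 were lower, which is 80.2% against 58.3%. Brightness bears on this comparison, because subunit genes are among the brighter genes of the array. The 1966 genes whose signal lay between the 10th and 90th percentile of the members' own signals had a median of -0.30. In LuM1 71.6% of them were lower, 29.6% at least 1.5-fold lower and 8.65% at least 1.5-fold higher. The members' median thus lay 0.05 below that of genes of the same brightness. The direction of the members' median depends on the scaling, since on the authors' processed values it was 0.09, with 43.2% of members lower, with quantile normalization 58.0% were lower, and with the arrays scaled to genes of the same brightness 55.6% were. The authors' values shifted the median of all genes by 0.45 in this comparison and the members with it.

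Against NM11, LuM1 had 2 of 81 members at least 1.5-fold higher, where 19.1% of all and 4.48% of equally bright genes were. At least 1.5-fold lower were 16, where 20.5% of all and 27.5% of equally bright genes were. The median was -0.29, against -0.11 for all genes and -0.33 for genes of the same brightness, and it turned to 0.30 when scaled to Hprt, to 0.12 on the authors' values and to 0.04 with the E1A spike-in controls as reference. In all, 68 of 81 members were lower in LuM1, which is 84.0% against 7319 of 12851 of all genes and 75.3% of genes of the same brightness. That share was 69.1% with no scaling, 45.7% with the E1A controls, 53.1% with quantile normalization, 33.3% on the authors' values and 19.8% with Hprt. These 2 comparisons share the LuM1 array and are not independent of each other.

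NM11 over Colon26 had a median of -0.04, against -0.02 for all genes, with 39 members higher and 42 lower. Of 82 members, 3 were at least 1.5-fold higher, where 15.5% of all and 10.6% of equally bright genes were. Another 6 were at least 1.5-fold lower, where 16.7% of all and 7.07% of equally bright genes were. The share of members lower rose from 51.9% to 63.0% with no scaling, to 85.2% with the E1A controls and to 92.6% with Hprt. The latter 2 shifted the median of all genes by -0.33 and -0.49.

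Taking each line against both others, 13 members were at least 1.5-fold lower in LuM1, against 11.2% of all and 18.1% of equally bright genes. Higher in LuM1 were 2, against 12.1% of all and 2.85% of equally bright genes. The count of 13 was 5 with quantile normalization, 2 with Hprt and 1 on the authors' values. For Colon26 the counts were 5 higher, against 9.56% of all and 4.68% of equally bright genes, and 2 lower, against 8.3% and 5.09%. No member stood apart in NM11 in either direction. There 5.64% of all genes were higher and 4.81% lower, and of equally bright genes 3.51% and 0.966%. Within single genes and on this scale alone, LuM1 was the lowest of the 3 lines in 59 of 81 members, which is 72.8% against 45.7% of all genes and 62.8% of genes of the same brightness. The interquartile range of the members' log2 ratios was 0.61 for LuM1 over Colon26 and 0.41 for both other comparisons. It was 0.89, 0.82 and 0.67 for all genes, and 0.72, 0.61 and 0.55 for genes of the same brightness. Bright genes thus shared part of the narrower spread.

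**Figure D1:**
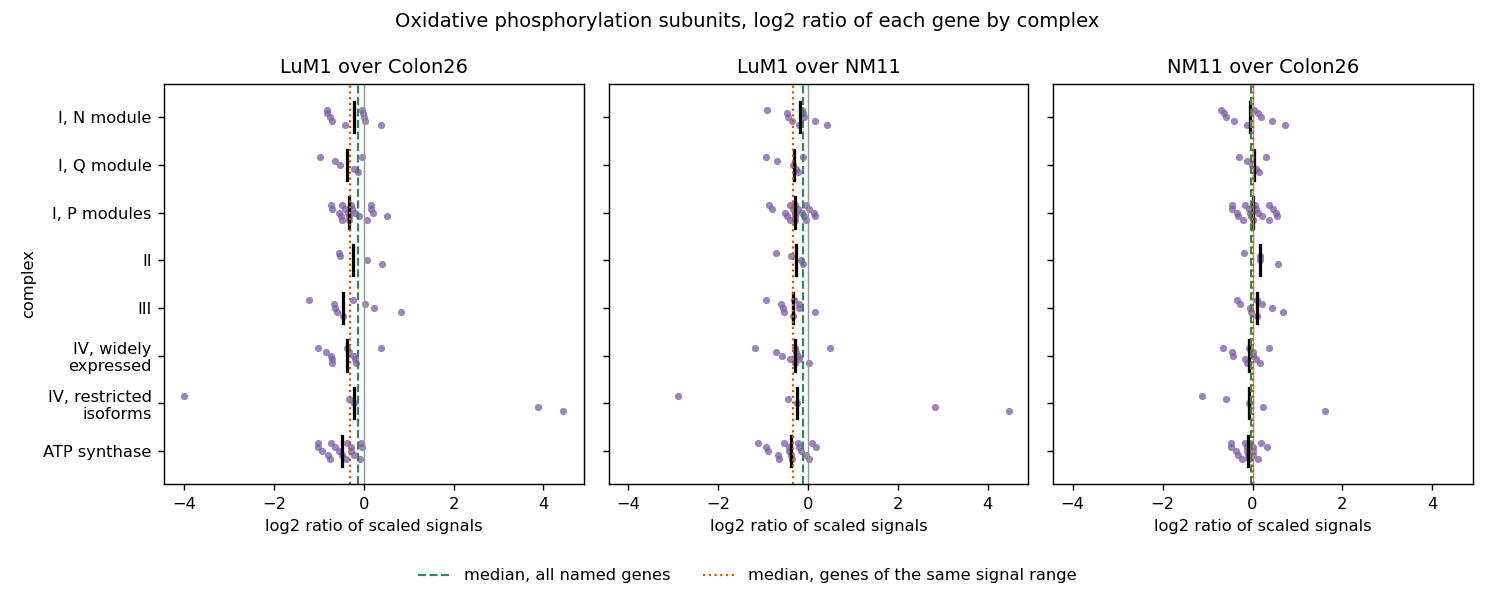
Log2 ratio of the scaled signals of each subunit gene (points), grouped by complex, for LuM1 over Colon26, LuM1 over NM11 and NM11 over Colon26, with the median of each group (black bars) and the medians of all named genes and of genes of the same signal range (vertical lines). Most points lie near the vertical lines, and 3 restricted complex IV isoforms, at 4.43, 3.89 and -4.01 for LuM1 over Colon26, lie far outside.

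The restricted isoforms of complex IV gave the largest differences. Cox7a1, the heart and skeletal muscle form of subunit 7a, had a signal of 67.0 in Colon26, 1444 in LuM1 and 205 in NM11. LuM1 was highest and Colon26 lowest. The log2 ratio was 4.43 for LuM1 over Colon26, a 21.6-fold difference, 2.82 for LuM1 over NM11 and 1.61 for NM11 over Colon26. Of 12397 genes with a ratio, 75 were at least as high in LuM1 over Colon26, Cox7a1 included. Its widely expressed partner Cox7a2 was lowest in LuM1, with 39181 in Colon26, 24164 in LuM1 and 39696 in NM11, or -0.70 for LuM1 over Colon26 and -0.72 for LuM1 over NM11.

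Ndufa4l2, a relative of Ndufa4 that is known to be induced at low oxygen, had a signal of 37.4 in Colon26, 554 in LuM1 and 24.96 in NM11. It was thus well above the other lines in LuM1, by 14.8-fold over Colon26 and 22.2-fold over NM11, while NM11 over Colon26 was -0.58, just short of 1.5-fold. The Colon26 and NM11 signals lay near the lowest detected signals of those arrays, 26.4 and 19.6, so the size of these ratios is uncertain. Its partner Ndufa4, now assigned to complex IV, had 9394 in Colon26, 5795 in LuM1 and 8631 in NM11, or -0.70 for LuM1 over Colon26 and -0.57 for LuM1 over NM11. Cox4i2, the other isoform known for induction at low oxygen, showed no such pattern, with 626 in Colon26, 542 in LuM1 and 742 in NM11. Its log2 ratios of -0.21, -0.45 and 0.24 changed sign with the scaling, and those of its partner Cox4i1 were -0.37, -0.21 and -0.16.

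Cox6a2, the muscle form of subunit 6a, ran opposite to Cox7a1. Its signal was 2910 in Colon26, 181 in LuM1 and 1343 in NM11, so that Colon26 was highest and LuM1 lowest. LuM1 was 16.1-fold below Colon26 and 7.43-fold below NM11, and NM11 was 2.17-fold below Colon26. Of 12397 genes with a ratio, 45 were at least as low in LuM1 over Colon26, Cox6a2 included. The partner Cox6a1 had log2 ratios of -0.20, -0.21 and 0.01, close to or below the scanner's error. The muscle-restricted pair Cox7a1 and Cox6a2 therefore had opposite orders over the 3 lines.

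Each of these 3 isoforms rests on 1 probe. The spots around each of them, 74 to 90 detected spots within 8 rows and 5 columns, had medians between -0.17 and -0.02 for LuM1 over Colon26, so the large ratios were not shared by their surroundings. Under the 8 scalings and background corrections tried, the direction of all 3 held. LuM1 over Colon26 ranged from 3.36 to 4.88 for Cox7a1, from 2.39 to 4.34 for Ndufa4l2 and from -4.05 to -3.56 for Cox6a2. All these settings but quantile normalization and the normexp background correction shift every log2 ratio of that comparison alike, by at most 0.45. They could not turn ratios of this size, so a kept direction under them is no check. For Ndufa4l2 the range was 2.61 to 5.06 for LuM1 over NM11 and -1.07 to -0.22 for NM11 over Colon26.

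Cox8b, the muscle form of subunit 8, was well above background only in Colon26, at 160, and read 9.08 in LuM1 and 4.36 in NM11. That makes Colon26 at least 7.94-fold above LuM1 and at least 8.17-fold above NM11, against the lowest detected signal of those arrays. Its surroundings were unusual, as 21 of 179 spots around it, or 11.7%, were well above background in Colon26 alone, against 1.89% over the array, and the part of this cluster in the value was not tested. The partner Cox8a had 116003 in Colon26, 65022 in LuM1 and 86451 in NM11, or -0.84 for LuM1 over Colon26. Cox6b2, a testis form, was dim on all arrays at 159 in Colon26, 127 in LuM1 and 150 in NM11. Its partner Cox6b1 had log2 ratios of -0.34, -0.26 and -0.07.

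**Figure D2:**
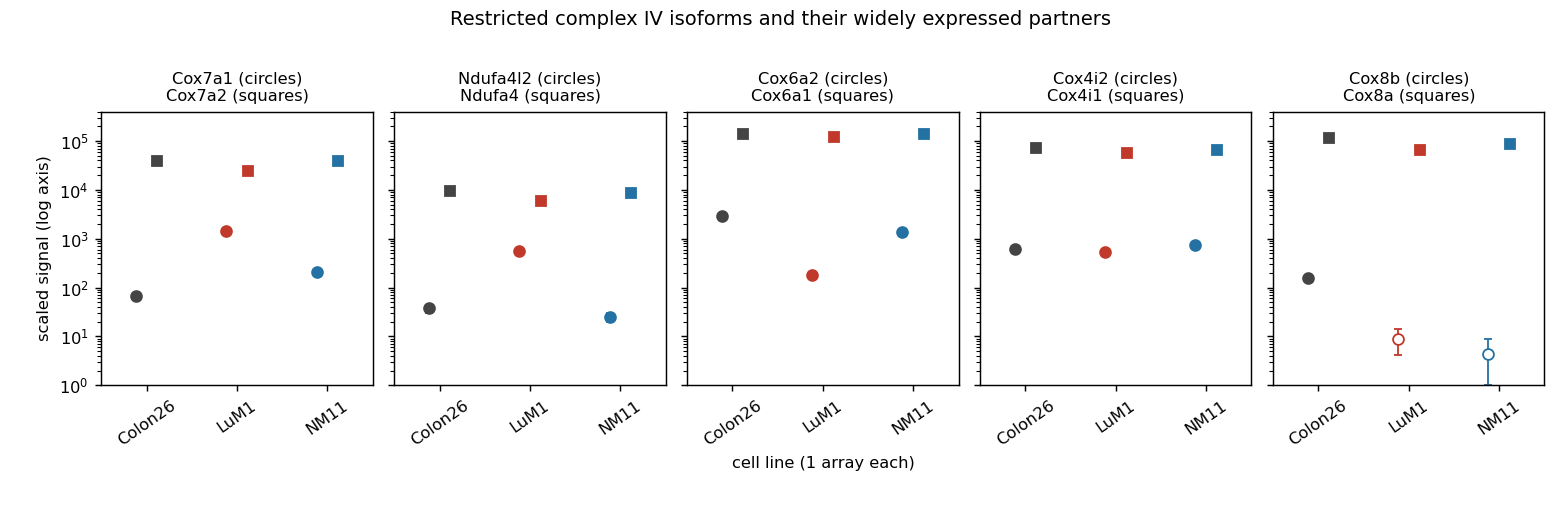
Scaled signal on a log axis of 5 restricted complex IV isoforms (circles) and their widely expressed partners (squares) in Colon26, LuM1 and NM11, 1 array each. Bars are the scanner's error of the spot and mostly lie within the symbol, open symbols were not well above background, and the heights of different genes cannot be compared. Cox7a1 and Ndufa4l2 are highest and Cox6a2 lowest in LuM1, while the partners differ far less between lines.

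The 11 widely expressed complex IV subunits had a median log2 ratio of -0.37 for LuM1 over Colon26 and -0.29 for LuM1 over NM11, which is 0.07 below and 0.04 above the median of equally bright genes. Cox5a, a subunit on the matrix side, had the lowest ratios. Its signal was 61602 in Colon26, 30410 in LuM1 and 69065 in NM11. LuM1 was thus about 2-fold below both other lines, at -1.02 and -1.18, and relative to the medians of equally bright genes the values were -0.72 and -0.85. Cox7b stood at -0.74 for LuM1 over Colon26 and -0.29 for LuM1 over NM11. Cox6c was the one widely expressed subunit higher in LuM1 than in Colon26, at 0.39, and was 0.37 for NM11 over Colon26. Cox7a2l, which helps to join complexes III and IV, was lowest in NM11, with 50881 in Colon26, 45395 in LuM1 and 32448 in NM11, or -0.65 for NM11 over Colon26.

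ATP synthase had the lowest LuM1 over Colon26 median of the complexes, -0.47. On this scale all 17 of its genes were lower in LuM1 than in Colon26, as were 71.6% of equally bright genes. That was not so on the authors' values, which add 0.45 to every log2 ratio of that comparison. The median of ATP synthase lay 0.17 below that of equally bright genes, and 11 of 17 genes lay below the latter. The median of complex III, -0.46, was close to it. Against NM11 the median of ATP synthase was -0.39, with 14 of 17 lower, where 75.3% of equally bright genes were. The NM11 over Colon26 median was -0.10.

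Each part of the enzyme held genes with low ratios and genes near 0. The F1 head, which makes ATP, is built from the alpha and beta subunits around a central stalk of gamma, delta and epsilon. Atp5b, the catalytic beta subunit, had 106963 in Colon26, 55914 in LuM1 and 107768 in NM11. LuM1 was low and the other lines were alike, and the log2 ratios were -0.94 and -0.95, with 3 probes between -1.19 and -0.94 for LuM1 over Colon26. Atp5a1, the alpha subunit, had 84033 in Colon26, 41710 in LuM1 and 60407 in NM11, or -1.01 for LuM1 over Colon26 by its brighter probe and -0.55 by the other. NM11 lay between, at -0.48 for NM11 over Colon26.

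Atp5d, the delta subunit, had 18664 in Colon26, 9221 in LuM1 and 17126 in NM11, which gave -1.02 and -0.89. Atp5c1, the gamma subunit, stood at -0.75 and -0.67. Atp5e, the small epsilon subunit, was an exception among the 5 F1 genes, with -0.22 and -0.05. In LuM1 over Colon26 the directions of Atp5a1, Atp5b, Atp5c1 and Atp5d were kept under all 8 other scalings and background corrections tried. The value nearest to 0 was -0.31, for Atp5c1. The settings that multiply a whole array shift these ratios by at most 0.45 and could not turn them.

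The c subunit forms the rotating ring in the membrane, and 3 genes encode the same mature protein with different import sequences. Atp5g1 had 44515 in Colon26, 25510 in LuM1 and 55546 in NM11. It was thus lowest in LuM1, at -0.80 and -1.12, and its 2 probes gave -0.80 and -0.71 for LuM1 over Colon26. Atp5g3 had 61241 in Colon26, 39159 in LuM1 and 61385 in NM11, or -0.65 in both comparisons. Atp5g2, whose window holds the NRF1 motif printed above, had 69209 in Colon26, 67815 in LuM1 and 78720 in NM11. Its log2 ratios of -0.03 and -0.22 were close to the scanner's error, so the 3 genes for this subunit had unequal ratios.

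The remaining subunits of the peripheral stalk and membrane part spanned -0.74 to -0.05 for LuM1 over Colon26. Atp5pb, subunit b of the stalk, was lowest at -0.74 and stood at -0.42 against NM11. Atp5md and Atp5k, small membrane subunits, were at -0.05 and -0.08. Atp5mpl had the highest LuM1 over NM11 ratio of the complex, 0.19, and was -0.48 for NM11 over Colon26.

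**Figure D3:**
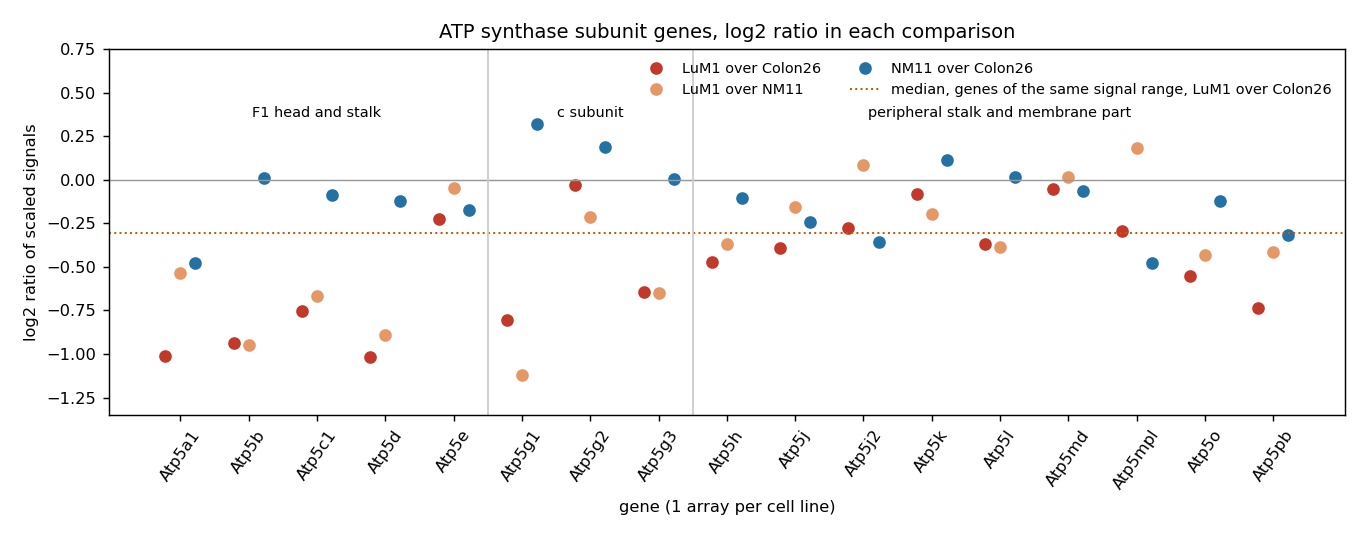
Log2 ratio of the scaled signals for the 17 ATP synthase genes in the 3 comparisons, grouped by place in the enzyme, 1 array per line, with the median of equally bright genes for LuM1 over Colon26 as a dotted line at -0.30. Atp5a1, Atp5b, Atp5c1, Atp5d, Atp5g1 and Atp5g3 lie well below the line and Atp5e and Atp5g2 above it.

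Complex III had medians of -0.46 for LuM1 over Colon26, -0.35 for LuM1 over NM11 and 0.10 for NM11 over Colon26, and its LuM1 over Colon26 ratios had the widest range outside the restricted isoforms. Uqcrc1, a core subunit, had 19192 in Colon26, 8223 in LuM1 and 15852 in NM11. LuM1 was lowest, at -1.22 and -0.95, the first being a 2.33-fold difference. Its fellow core subunit Uqcrc2 stood at -0.24 and -0.35, near the median of equally bright genes. Uqcrh, the acidic hinge protein, ran the other way with 33230 in Colon26, 59483 in LuM1 and 53425 in NM11. Both sublines were above Colon26, at 0.84 and 0.69, and differed by 0.15 from each other.

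Uqcrq had 83765 in Colon26, 54061 in LuM1 and 81615 in NM11, or -0.63 and -0.59. Uqcr10 was at -0.66 and Cyc1, cytochrome c1, at -0.60 for LuM1 over Colon26. Uqcrfs1, the Rieske iron-sulphur protein, was nearly level in the same comparison at 0.02. Complex III therefore had members past 1.5-fold in both directions.

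Complex II, which also acts in the tricarboxylic acid cycle, had 4 genes. Sdha, the flavoprotein that oxidises succinate, had 6925 in Colon26, 9139 in LuM1 and 10186 in NM11. It was higher in both sublines, at 0.40 and 0.56. Sdhb, the iron-sulphur subunit, was at -0.56 for LuM1 over Colon26. The membrane anchor Sdhd had 14696 in Colon26, 10176 in LuM1 and 16578 in NM11. By the brightest probes its LuM1 over NM11 ratio of -0.70 was the only one in this complex past 1.5-fold. The second probes gave -0.69 for Sdhb in LuM1 over Colon26 and 0.64 for Sdha in NM11 over Colon26, both past 1.5-fold. The other anchor, Sdhc, stayed within 0.17 in every comparison.

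Complex I had 35 measured genes and medians of -0.33, -0.28 and 0.02 for LuM1 over Colon26, LuM1 over NM11 and NM11 over Colon26, within 0.06 of the medians of equally bright genes. None was at least 1.5-fold higher in LuM1, where 20.4% of all and 8.65% of equally bright genes were against Colon26, and 19.1% and 4.48% against NM11. Lower than in Colon26 were 8, which is 22.9% against 24.6% of all genes and 29.6% of equally bright genes, and lower than in NM11 were 5, which is 14.3% against 20.5% and 27.5%. In the Q module, where electrons reach ubiquinone, all 6 genes were lower in LuM1 in both comparisons on this scale, though not on the authors' values. Of equally bright genes 71.6% were lower than in Colon26 and 75.3% lower than in NM11. The medians of the module were -0.37 and -0.31, and 3 and 2 of its 6 genes lay below the medians of equally bright genes. Ndufs8, which carries iron-sulphur clusters, had 18248 in Colon26, 9370 in LuM1 and 17965 in NM11. The ratios were -0.96 and -0.94, and Ndufs7, its neighbour in the electron path, had -0.63 and -0.70.

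The N module, which binds and oxidises NADH, held a group that was highest in Colon26. Ndufa2 had 42469 in Colon26, 23973 in LuM1 and 26269 in NM11. Ndufa7 had 40045 in Colon26, 24404 in LuM1 and 25937 in NM11. Ndufv2, an iron-sulphur subunit, had 17639 in Colon26, 10077 in LuM1 and 11675 in NM11. These 3 genes stood apart in Colon26 and differed little between the sublines, with NM11 over Colon26 at -0.69, -0.63 and -0.60 and LuM1 over NM11 at -0.13, -0.09 and -0.21.

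Other N module genes had other orders. Ndufa12 was lowest in LuM1, at -0.75 and -0.93. Ndufs4 had 4594 in Colon26, 5965 in LuM1 and 7621 in NM11. By the brightest probes it was the only complex I member at least 1.5-fold higher in NM11 than in Colon26, at 0.73. A second probe of Ndufb5 was also past 1.5-fold in that comparison, at 0.63. Ndufab1, which the symbol rule left out and which is counted below with the electron carriers, stood at 0.78. Ndufv3 had the highest LuM1 over NM11 ratio of complex I, 0.41.

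The membrane arm, or P modules, pumps protons, and its 19 genes had medians of -0.33 and -0.29 for the 2 LuM1 comparisons. Ndufa13 and Ndufa8 were the 2 members past 1.5-fold lower against Colon26, at -0.73 and -0.70. Against NM11 the 2 were Ndufb6, at -0.88, and Ndufb5, at -0.81. Ndufb5 had 20869 in Colon26, 17188 in LuM1 and 30206 in NM11, so NM11 was highest. At the other end, Ndufa1 had 14202 in Colon26, 20230 in LuM1 and 18354 in NM11, with 0.51 for LuM1 over Colon26. Ndufb4 at -0.46 and Ndufb11 at 0.54 bounded the NM11 over Colon26 ratios.

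For 17 genes 2 or more probes were measured, and their log2 ratios differed by a median of 0.05 for LuM1 over Colon26. The largest difference was 0.46, in Atp5a1, and no gene had probes that were past 1.5-fold in opposite directions. Subunit genes have processed pseudogenes and close relatives, and signal from such copies could not be told apart here.

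**Figure D4:**
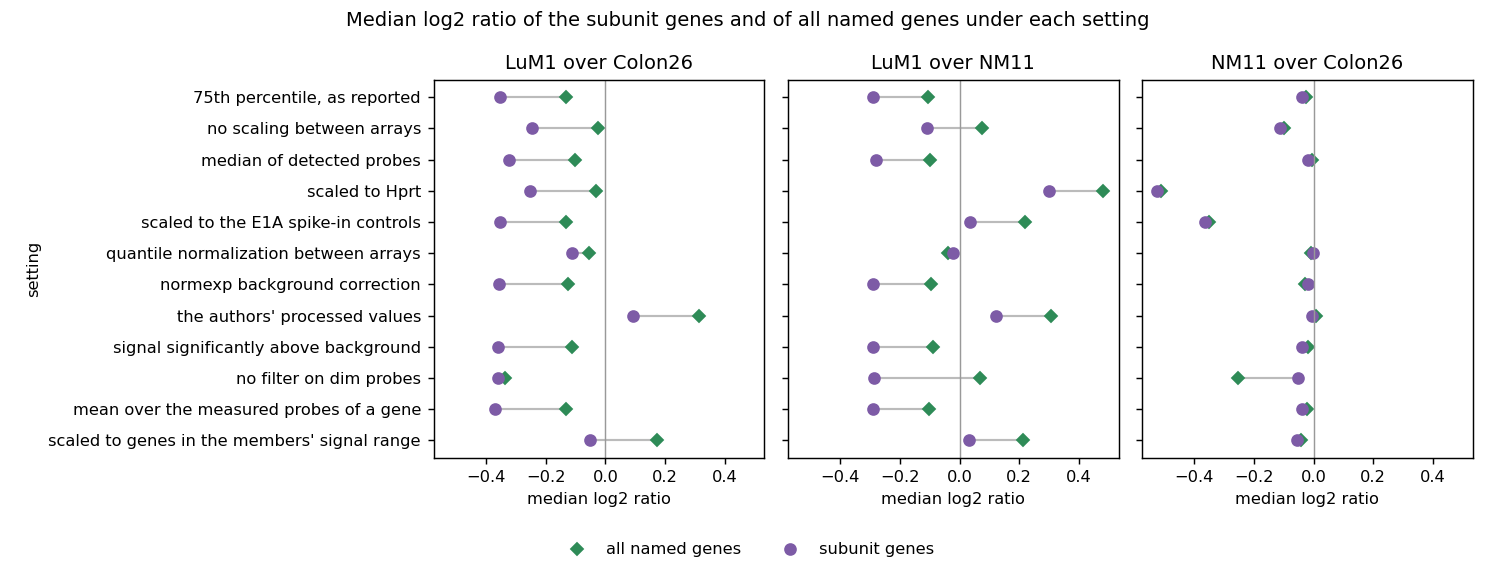
Median log2 ratio of the subunit genes (circles) and of all named genes (diamonds) under 12 ways to scale, filter or combine the probes, in the 3 comparisons. The circle moves with the diamond under most settings, and the plotted LuM1 over Colon26 medians of the subunit genes run from -0.37 to 0.09, passing 0 on the authors' processed values. With every probe counted on its own, which is not plotted, that median was -0.38.

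Genes that work with the subunits were set beside them as 4 lists. Their counts stand against the same shares as the members', 20.4% of all genes at least 1.5-fold higher and 24.6% lower for LuM1 over Colon26, 19.1% and 20.5% for LuM1 over NM11, and 15.5% and 16.7% for NM11 over Colon26. Their medians stand against -0.13, -0.11 and -0.02 for all genes and -0.30, -0.33 and 0.02 for genes as bright as the subunits, and they move with the scaling as those of the subunits do, by 0.45 for LuM1 over Colon26 on the authors' values.

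Of 50 measured assembly factors, which build the complexes, 4 were at least 1.5-fold higher and 17 lower in LuM1 than in Colon26, with a median of -0.42. Sdhaf4, an assembly factor of complex II, had 222 in Colon26, 995 in LuM1 and 664 in NM11, or 2.17 for LuM1 over Colon26 and 1.58 for NM11 over Colon26. Both sublines were thus above the parent, as they were for Atpaf1, an ATP synthase assembly factor, at 1.06 and 1.09. Cox11, which delivers copper to complex IV, ran the other way, with 2383 in Colon26, 871 in LuM1 and 1415 in NM11, or -1.45 for LuM1 over Colon26. Pet117 was dim and stood at -1.57 and -1.54 against Colon26.

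Against NM11, 2 assembly factors were at least 1.5-fold higher in LuM1 and 12 lower, with a median of -0.28. The lowest were Cox10 at -1.08 and Sco2 at -1.05, both needed to build complex IV, and the highest were Uqcc3 at 0.72 and Sdhaf3 at 0.66. In NM11 over Colon26, 4 were higher and 7 lower, with Coa7 at 1.09 and Cox20 at -1.19 next to Sdhaf4 and Pet117.

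Of 16 measured genes for mitochondrial gene expression and its nuclear regulators, 0 were at least 1.5-fold higher and 3 lower in LuM1 than in Colon26, where 20.4% and 24.6% of all genes were. Of 17 against NM11, 0 were higher and 2 lower, where 19.1% and 20.5% of all genes were. Tfam, which packages and transcribes mitochondrial DNA, had 2494 in Colon26, 1480 in LuM1 and 2439 in NM11. LuM1 alone was low, at -0.75 and -0.72. The regulator Esrra stood at -0.63 for LuM1 over Colon26 and Pprc1 at -0.71 for LuM1 over NM11, while Mterf1a had the highest ratios, 0.14 and 0.48. Nrf1 itself stood at -0.41 and -0.20. The coactivator Ppargc1a was well above background in NM11 alone, at 23.8. That value lay below the lowest detected signal of Colon26, 26.4, and 1.18-fold above that of LuM1, 20.1, so no difference between lines can be read from it.

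Among 17 measured electron carriers, supercomplex and inhibitor genes, 4 were higher and 6 lower in LuM1 than in Colon26, where 20.4% and 24.6% of all genes were. Against NM11, 2 were higher and 2 lower, where 19.1% and 20.5% were. Uqcc3 is counted here and among the assembly factors, and was higher in both comparisons. Coq8a, a kinase-like protein of ubiquinone synthesis, had 25.1 in Colon26, where it was not well above background, 138 in LuM1 and 36.4 in NM11. LuM1 was at least 5.23-fold above Colon26 and stood at 1.92 over NM11. Pdss1, which makes the ubiquinone tail, was lowest at -1.12 and -1.003, and its partner Pdss2 was at -1.004 for LuM1 over Colon26 and -0.96 for NM11 over Colon26. Coq8b had 0.82 for LuM1 over Colon26.

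Of 14 tricarboxylic acid cycle genes, 1 was higher and 6 lower in LuM1 than in Colon26, where 20.4% and 24.6% of all genes were, with a median of -0.57 against -0.13. Against NM11, 1 was higher and 3 lower, where 19.1% and 20.5% were, with a median of -0.29 against -0.11. Idh3a, a subunit of the NAD-dependent isocitrate dehydrogenase, had 6863 in Colon26, 2798 in LuM1 and 6637 in NM11, and LuM1 alone was low, at -1.29 and -1.25. Citrate synthase, Cs, stood at -0.62 and -0.94 and Dld at -0.88 for LuM1 over Colon26. Suclg2 was higher in LuM1 at 0.63 and 0.64. In NM11 over Colon26 the list ran from Idh3b at -0.78 to Ogdh at 0.57.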

How the data were processed

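Cy3-labelled cRNA from 3 cell lines was hybridised to SurePrint G3 mouse arrays, 1 array per line on 1 slide. The authors deposited the scanner output of Agilent Feature Extraction 11.5.1.1, the version given in the submitters' processing notes, as spot intensity values after background subtraction, with spot flags and other scanner columns. They also deposited 1 processed intensity value per probe, which is the scanner signal multiplied by a constant of 0.654 in Colon26, 0.829 in LuM1 and 0.706 in NM11. The scale of these processed values is linear, no centring per gene is present, and their column medians are 22.6, 35.4 and 22.2.

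Spots with outlier flags were left out (74 to 137 per array). Each array was divided by its 75th percentile over all spots that are not controls, replicate spots were averaged, and probes were named through RefSeq accessions (58.3% of 56605 probes). Each gene was given by the probe with the highest mean signal. A gene counted in a comparison where at least 1 array was well above background, and a probe not well above background on the other array gave a bound against that array's lowest detected signal. The design was annotated on mm9, so probe positions are not printed. A call is a ratio of at least 1.5-fold, with no test, because each line has 1 array, and precision is limited by how few arrays there are.

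Named genes are all members past 1.5-fold in any comparison or measured on some arrays only, the highest and lowest gene of each complex, and all restricted isoforms with their partners. Of each other list, some of the highest and lowest genes are named, but not every extreme of every comparison. The members and lists were chosen with earlier results of these data known. Alternatives were other scalings, the authors' values, normexp with an offset of 50 (limma 3.58.1, R 4.3.3), 2 filters on dim probes and 2 ways to combine probes. Other steps used Python 3.11.15 with pandas 2.3.3 and numpy 2.4.6. The calling step was tested on simulated data.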

Additional observations from a re-analysis of the deposited data

How the results depend on the processing

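Scalings that multiply a whole array add the same amount to every log2 ratio of a comparison. The difference between the median of the subunit genes and that of all genes therefore cannot change under them. It was -0.22 for LuM1 over Colon26, -0.18 for LuM1 over NM11 and -0.01 for NM11 over Colon26. It was -0.06, 0.02 and 0.01 with quantile normalization. With no filter on dim probes, which moves the median of all genes, it was -0.02, -0.36 and 0.20. No called value changed sign, but some came close to 0. For LuM1 over Colon26 and for NM11 over Colon26, scalings that multiply a whole array shift ratios by less than 1.5-fold. They could not turn a called value there. For LuM1 over NM11 the values nearest to 0 were -0.005 for Uqcrq, -0.06 for Atp5g3 and -0.08 for Atp5c1. The cause of the changes below was not tested beyond the shift each scaling makes by construction. The counts below are of members alone, with no share of all genes under the same setting beside them. Scalings that multiply a whole array shift all genes as they shift the members.

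For LuM1 over Colon26 the median log2 ratio was 0.094 on the authors' values, -0.11 with quantile normalization and -0.050 when scaled to genes of the same brightness, a setting chosen after seeing the data. Under these 3, in that order, 11, 7 and 7 members were at least 1.5-fold higher and 3, 6 and 8 lower.

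For LuM1 over NM11 the median was 0.30 with Hprt, 0.036 with the E1A spike-in controls, -0.022 with quantile normalization, 0.12 on the authors' values and 0.031 when scaled to genes of the same brightness. Under these 5, in that order, 13, 4, 4, 5 and 4 members were at least 1.5-fold higher and 2, 7, 9, 3 and 7 lower. With no scaling 4 were higher and 10 lower.

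For NM11 over Colon26 the median was -0.53 with Hprt, where 1 member was at least 1.5-fold higher and 33 lower, and -0.36 with the E1A controls, where 1 was higher and 21 lower. With every probe counted on its own, 5 were higher.

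Against both other lines, members at least 1.5-fold lower in LuM1 numbered 8 with no scaling, 2 with Hprt, 7 with the E1A controls, 5 with quantile normalization, 1 on the authors' values and 5 when scaled to genes of the same brightness. Members higher in LuM1 numbered 4 with Hprt. Members higher in Colon26 numbered 14 with Hprt, 12 with the E1A controls, and 2 with quantile normalization, on the authors' values and when scaled to genes of the same brightness. Members lower in Colon26 numbered 1 with Hprt and with the E1A controls and 4 on the authors' values. Members lower in NM11 numbered 2 with no scaling, 7 with Hprt, 3 with the E1A controls, 1 on the authors' values, 1 with the looser filter of signal significantly above background, 1 with no filter and 2 when scaled to genes of the same brightness. With every probe counted on its own, 1 item was higher in NM11.

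No paired analysis was possible because each line has 1 array, and no line has a replicate to leave out.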
